A study of Mus musculus with 18 samples.

Results

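The genes described here are those by which the formative and primed states of the epiblast are recognised, namely Fgf5, Otx2, Pou3f1, Sox3, Sox4, Zic2, Oct6 and Foxd3. Members were chosen by name, with earlier results of these data known. Of the 8 names, Oct6 is an older name of Pou3f1, which left 7 genes of the 55471 genes listed per library. Gene expression had been measured by RNA-Seq in 18 libraries of 9 groups, with 2 libraries per group. OSKM-ESCs were mouse embryonic stem cells (strain: a cross of (C57BL/6 x 129S4/SvJae)F1 with (CBA/CaJ X C57BL/6J)F2), switched from 2iL to N2B27 with doxycycline (DOX, 2 μg/mL) and collected at days 18, 25 and 38. 2iL-ESCs were the same line kept in 2iL (N2B27 with PD0325901, which inhibits MEK, CHIR99021, which inhibits GSK3, and the cytokine LIF) and collected on the same days. Both carried M2rtTA in Rosa26, a single polycistronic OSKM transgene (the factors Oct4, Sox2, c-Myc and Klf4) in Col1a1 and GFP under the Oct4 distal promoter, so that DOX, the transgene and the medium without inhibitors changed together, and all 12 libraries came from 1 line grown on mouse fibroblast feeders. OSKM-iPSCs (clone 1 at passage 7, clone 3 at passage 6) and 2iL-iPSCs (clone 3 at passage 2, clone 6 at passage 3) had been reprogrammed from Tet-On-OSKM mouse embryonic fibroblasts of strain (C57BL/6 x 129S4/SvJae)F1, and MEF were such fibroblasts at passage 4 in DMEM with 10% FBS. For daily culture of the 2iL-iPSCs, the sample labels name N2B27 with DOX, whereas the design text and the methods give 2iL without DOX. The clones were grouped by their names. Passage and medium cannot be told apart in the iPSCs.

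The mouse epiblast passes from a naive state, before implantation, through a formative state to a primed state that can respond to the signals of gastrulation. FGF signalling through MEK and ERK drives the exit from the naive state, and 2iL holds cells in it by blocking MEK and GSK3 and by activating STAT3 through LIF. On exit, cells switch on Fgf5, a secreted growth factor, Otx2, a homeobox factor that directs the Oct4 protein to new enhancers, and Pou3f1, a POU factor of the same family as Oct4, whereas the SOX factors Sox3 and Sox4, the zinc finger factor Zic2 and the forkhead factor Foxd3 serve in the epiblast and again in later lineages such as the neural tube and the neural crest.

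Levels are FPKM, fragments per kilobase of transcript, scaled to the mapped fragments of the library, which are per length and so can be set side by side between genes. Tests used limma on log2(FPKM + 1) over every gene that exceeded 1 FPKM in any library compared, with Benjamini-Hochberg adjustment, and a gene was called at an adjusted p under 0.05. Fold changes on that scale understate the change of low genes. Each library held 11303 to 12095 genes above 1 FPKM, and the median ratio of coverage to FPKM, which moves with depth, lay between 2.99 and 3.62. Depth in reads is unknown, since counts were not among the values. Nothing in the labels says whether same-group libraries came from separate cultures, so the p-values measure only the spread between these libraries. Pou5f1 (Oct4), the defining pluripotency factor, lay between 437 and 843 FPKM in the 16 pluripotent libraries and was listed at 0 in MEF. Reads of the OSKM transgene and of endogenous Pou5f1, Sox2 and Klf4 cannot be told apart in these values.

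Start regions are shown for 3 of the genes that were higher in OSKM-ESCs at every day, as the 250 bases before the RefSeq transcript start on GRCm38.p6, 5′ to 3′ on the gene's strand, with motif matches in capitals. RefSeq promoters matched 4 of the 7 genes (Fgf5, Otx2, Sox4 and Foxd3). The motifs searched on both strands were the GC box GGGCGG, the octamer ATGCAAAT bound by POU factors, the SOX core ACAAAG, the E box CACGTG and the TATA box TATAAA. The Fgf5 region is chr5:98253934-98254183 on the plus strand, the Otx2 region is chr14:48667645-48667894 on the minus strand, and the Sox4 region is chr13:28953700-28953949 on the minus strand.
Fgf5: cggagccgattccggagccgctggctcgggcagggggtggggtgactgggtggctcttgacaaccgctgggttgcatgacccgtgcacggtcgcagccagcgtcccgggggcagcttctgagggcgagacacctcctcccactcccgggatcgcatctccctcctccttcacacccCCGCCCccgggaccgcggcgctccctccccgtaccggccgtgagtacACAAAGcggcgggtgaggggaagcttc
Otx2: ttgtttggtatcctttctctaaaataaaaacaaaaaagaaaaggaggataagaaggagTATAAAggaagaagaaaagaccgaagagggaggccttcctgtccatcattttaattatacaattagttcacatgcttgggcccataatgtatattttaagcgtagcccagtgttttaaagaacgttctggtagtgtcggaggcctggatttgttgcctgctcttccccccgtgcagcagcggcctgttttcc
Sox4: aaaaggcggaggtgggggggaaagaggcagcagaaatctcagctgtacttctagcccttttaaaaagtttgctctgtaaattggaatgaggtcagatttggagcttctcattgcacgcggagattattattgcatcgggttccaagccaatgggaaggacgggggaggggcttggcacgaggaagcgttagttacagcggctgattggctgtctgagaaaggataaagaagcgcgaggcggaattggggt
The Fgf5 region held 1 GC box that begins 74 bases before the start, read on the other strand, and 1 SOX core that begins 27 bases before it. RefSeq gives 4 start regions for Otx2, of which the one shown held 1 TATA box letter match 192 bases before its start and the other 3 held none of the motifs, and the Sox4 region held none of the 5 motifs. Of the 32851 RefSeq start regions of this length, 32.7% held the GC box, 16.5% the SOX core, 12.4% the TATA box, 6.02% the E box and 1.60% the octamer. G and C made up 70.8% of the Fgf5 region, 42.0% of the Otx2 region and 50.8% of the Sox4 region. Such matches are a description of letters and not sites of binding.

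Whether ESCs held by OSKM express these genes at another level than ESCs in 2iL was asked first. Fgf5, Otx2, Pou3f1, Sox3 and Sox4 were each higher in every OSKM-ESC library than in every 2iL-ESC library, whereas Zic2 overlapped between the media. Zic2 differed least, by 0.49 on the log2 scale over all days. Otx2 and Pou3f1 differed by 3.10 and 3.14 and Fgf5 by 2.24, an order that turned with a pseudocount of 0.1, where Fgf5 differed by 5.13, Otx2 by 4.37 and Pou3f1 by 4.00. Foxd3 was listed at 0 throughout and could not be tested. In bulk RNA, more cells expressing a gene and more RNA per cell cannot be told apart.

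**Figure D1:**
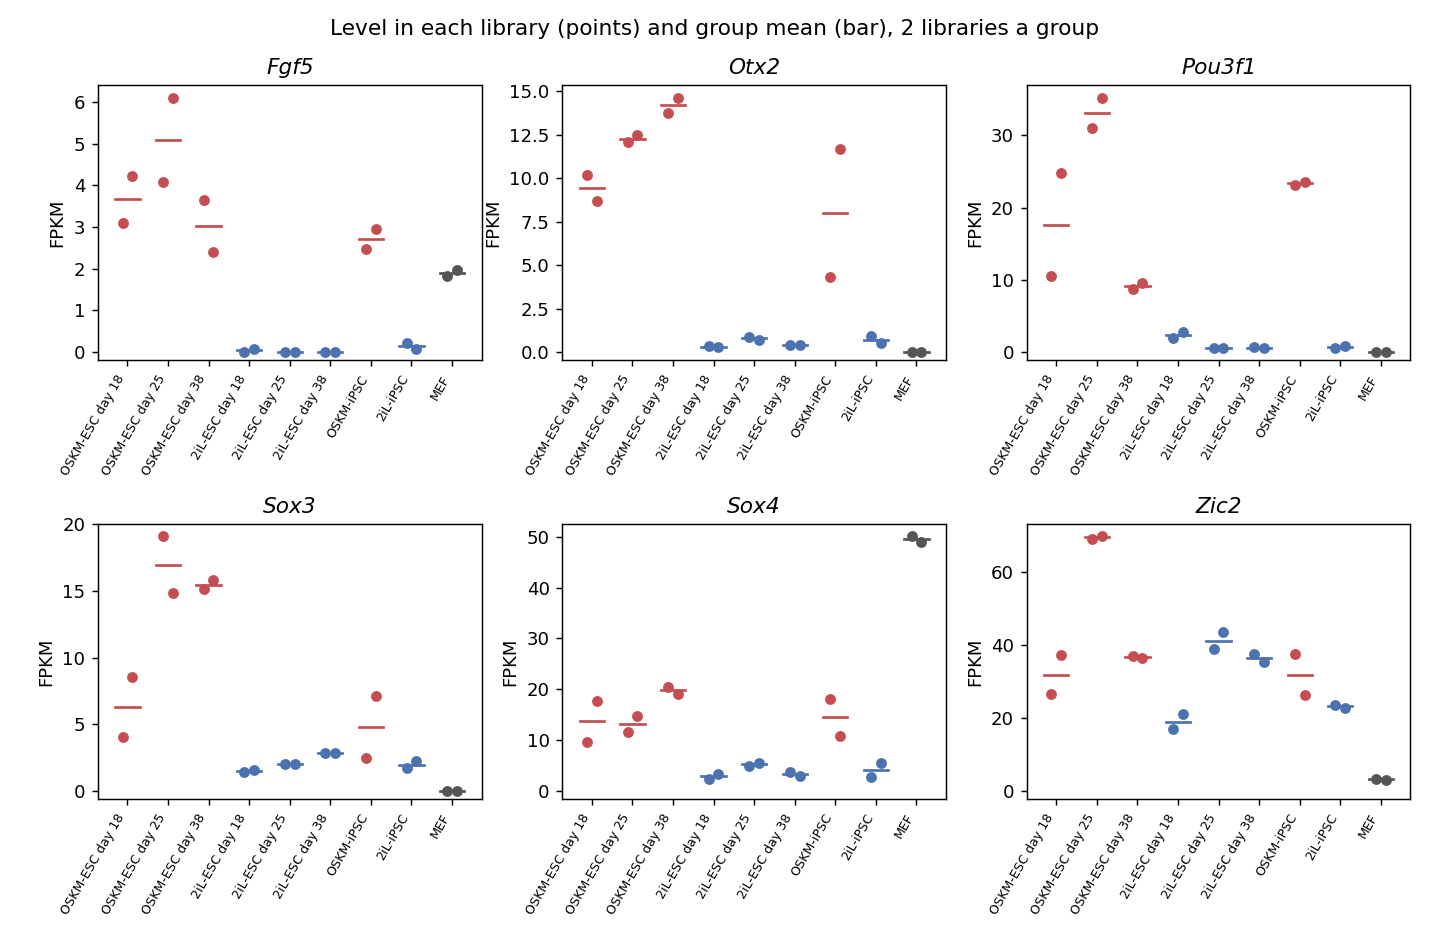
FPKM of 6 genes (vertical axis, linear) in each library (points) of the 9 groups (horizontal axis), with the group mean as a bar and 2 libraries per group. Fgf5, Otx2, Pou3f1, Sox3 and Sox4 lay higher in all 6 OSKM-ESC libraries (red) than in all 6 2iL-ESC libraries (blue), Zic2 was high in both media, and Sox4 was highest in MEF (grey).

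Fgf5 in OSKM-ESCs was 3.09 and 4.23 FPKM at day 18, 4.08 and 6.10 at day 25, and 3.64 and 2.41 at day 38. In 2iL-ESCs it was listed at 0 in 5 of 6 libraries and at 0.0855 in the other, replicate 2 of day 18. All OSKM-ESC libraries thus lay above all 2iL-ESC libraries. Over all days the log2 difference was 2.24 ± 0.14 (SE, n = 6 and 6, adjusted p = 1.1e-07), and no fold is given for days 25 and 38 because the 2iL-ESCs were listed at 0.

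Otx2 was 10.2 and 8.67 FPKM in OSKM-ESCs at day 18, 12.1 and 12.5 at day 25, and 13.7 and 14.6 at day 38. In 2iL-ESCs it was 0.361 and 0.282 at day 18, 0.865 and 0.718 at day 25, and 0.407 and 0.409 at day 38. No 2iL-ESC library reached 1 FPKM. The mean was 11.96 FPKM against 0.507, a ratio of 23.6, and the log2 difference was 3.10 ± 0.10 (SE, n = 6 and 6, adjusted p = 1.19e-09).

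Pou3f1, the POU factor also known as Oct6, was 10.5 and 24.8 FPKM in OSKM-ESCs at day 18, 31.05 and 35.2 at day 25, and 8.77 and 9.52 at day 38. In 2iL-ESCs it was 1.97 and 2.84 at day 18 and between 0.543 and 0.655 in the 4 later libraries. The day 18 libraries were the highest of the 2iL-ESCs, and the 2 OSKM-ESC libraries of day 18 differed most between replicates. The means were 19.96 and 1.20 FPKM, a ratio of 16.6, and the log2 difference was 3.14 ± 0.31 (SE, n = 6 and 6, adjusted p = 5.28e-06).

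Sox3, a SOXB1 factor of the epiblast and neural plate, was 4.06 and 8.58 FPKM in OSKM-ESCs at day 18, 19.1 and 14.8 at day 25, and 15.15 and 15.8 at day 38. In 2iL-ESCs it was 1.46 and 1.60 at day 18, 2.06 and 1.99 at day 25, and 2.87 and 2.82 at day 38. The lowest OSKM-ESC library stood above the highest 2iL-ESC library. The mean ratio was 6.06 and the log2 difference 2.04 ± 0.19 (SE, n = 6 and 6, adjusted p = 2.88e-06).

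Sox4, a SOXC factor found in many progenitors and in mesenchyme, was 9.62 and 17.7 FPKM in OSKM-ESCs at day 18, 11.6 and 14.7 at day 25, and 20.5 and 19.1 at day 38. In 2iL-ESCs it was 2.28 and 3.44 at day 18, 4.94 and 5.53 at day 25, and 3.75 and 2.93 at day 38. The arms did not overlap. The mean ratio was 4.08 and the log2 difference 1.78 ± 0.19 (SE, n = 6 and 6, adjusted p = 9.79e-06).

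Zic2, a zinc finger factor that binds enhancers in ESCs and patterns the neural tube, was 26.5 and 37.2 FPKM in OSKM-ESCs at day 18, 69.1 and 69.9 at day 25, and 36.9 and 36.5 at day 38. In 2iL-ESCs it was 16.9 and 21.03 at day 18, 38.8 and 43.5 at day 25, and 37.6 and 35.2 at day 38. The 2 media were apart at days 18 and 25 and overlapped at day 38. The mean ratio was 1.43 and the log2 difference over all days 0.49 ± 0.13 (SE, n = 6 and 6, adjusted p = 0.00702).

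Of the 7 genes, 6 passed the filter and 6 were called higher over all days, where 29.5% of the 14016 genes tested were called higher and the median log2 difference was 0.03. Fgf5 and Otx2 passed the filter only through OSKM-ESCs, and Pou3f1 passed in 2 of 6 2iL-ESC libraries, so the count is a description and not support. The arms did not overlap for 5 genes, against 14.6% of genes tested that were higher without overlap. In an exact permutation test with the medium labels exchanged within days (2-sided, 216 arrangements), p was 0.00926 for Fgf5, Otx2, Pou3f1, Sox3 and Sox4, the smallest it can give, and 0.0278 for Zic2. Arms that do not overlap on any day give that smallest value by construction, so it restates the absence of overlap and adds no support. At day 18, 6 genes were called higher (25.7% of all genes tested), at day 25, 6 genes (20.7%), and at day 38, 5 genes (34.6%), where Zic2 differed by 0.01 ± 0.05 (SE, adjusted p = 0.865 by limma). Fgf5 and Otx2 on each day, and Pou3f1 at days 25 and 38, passed the filter only through OSKM-ESCs, so these counts are descriptions. Without replicate 1 or replicate 2 of the 2iL-ESCs at day 18, 2 or 3 genes were called at that day, with the lone sample taken to vary like the others.

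**Figure D2:**
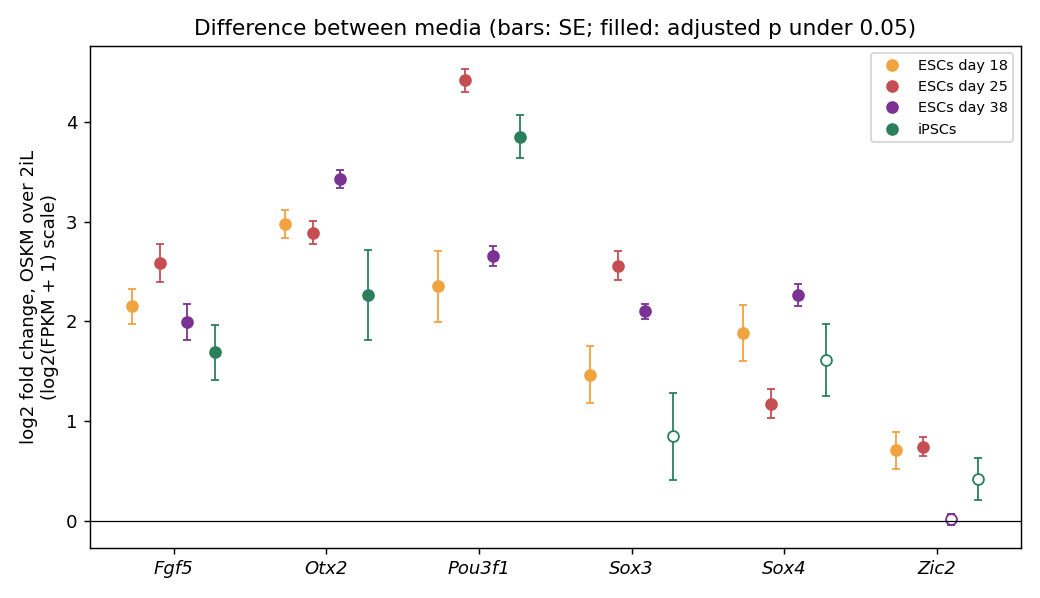
log2 fold change of OSKM over 2iL on the log2(FPKM + 1) scale (vertical axis, bars are SE) for 6 genes (horizontal axis) in ESCs of each day and in iPSCs, with 2 libraries per group. Filled points passed an adjusted p under 0.05. Pou3f1 reached 4.42 at day 25 and Zic2 lay at 0.01 at day 38.

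The difference between media itself varied with day for Otx2, Pou3f1 and Zic2, 3 of the 6 genes tested, where 37.9% of all genes did so. For Pou3f1 it was 2.35 ± 0.36, 4.42 ± 0.12 and 2.66 ± 0.10 at days 18, 25 and 38 (log2, SE, adjusted p of the interaction 0.008 by limma). For Otx2 it was 2.98 ± 0.14, 2.89 ± 0.12 and 3.43 ± 0.09 (adjusted p = 0.0292 by limma). For Zic2 it was 0.71 ± 0.19, 0.74 ± 0.09 and 0.01 ± 0.05 (adjusted p = 0.0312 by limma). The interaction was not called for Fgf5 (adjusted p = 0.223 by limma), Sox3 (0.06945) or Sox4 (0.07695), whose differences between media spanned 0.59, 1.10 and 1.09 over the days. Pou3f1 was called under every alternative run (adjusted p from 1.99e-04 to 0.0337), whereas Otx2 was not called with median-ratio scaling, quantile normalization, 1 fit of all 9 groups or a replicate block, and Zic2 was not with TPM, no filter on low values or 1 fit of all 9 groups. Sox3 was called with quantile normalization (adjusted p = 0.0287 by limma) and, like Sox4, with a replicate block (adjusted p = 0.0478 and 0.01 by limma). The number called was 1 without OSKM-ESC day 25 replicate 1, day 38 replicate 1 or 2, 2iL-ESC day 25 replicate 1 or 2iL-ESC day 38 replicate 1 or 2, and 5 without either OSKM-ESC library of day 18.

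**Figure D3:**
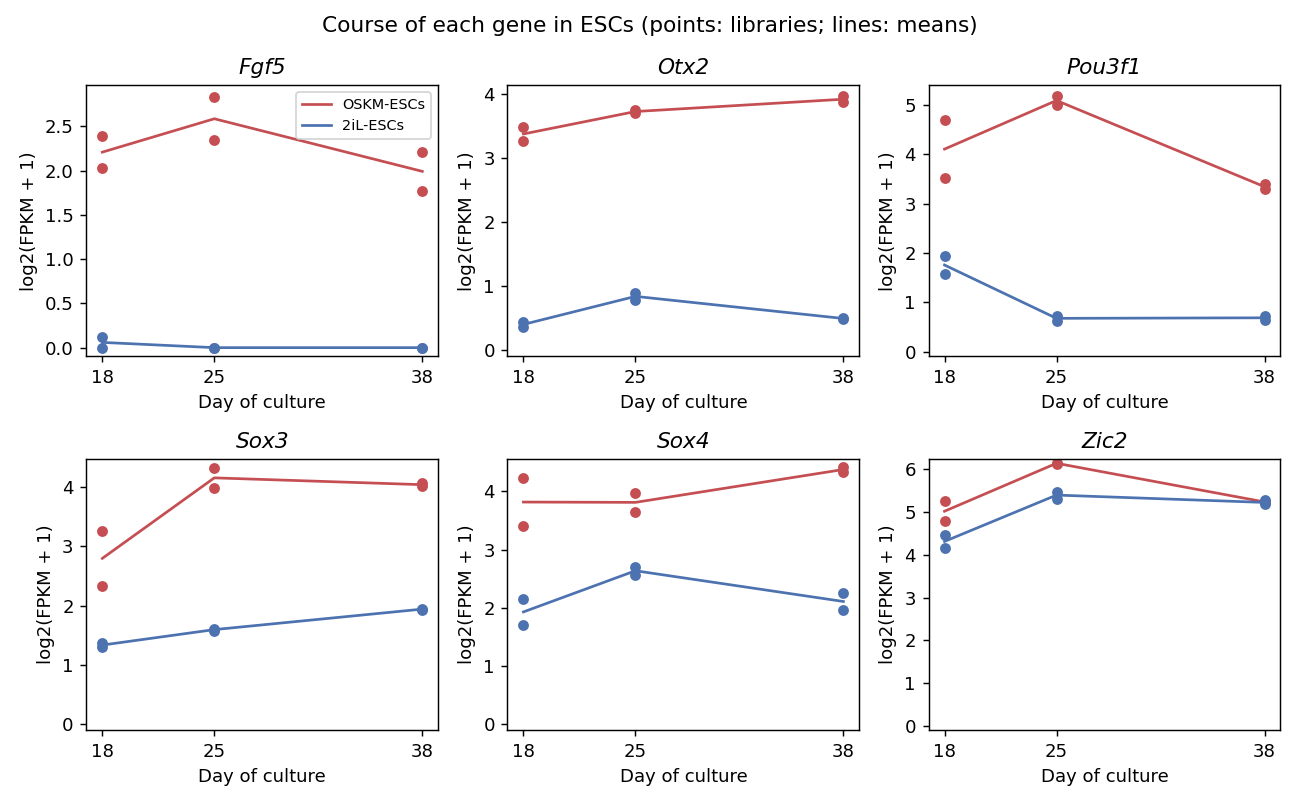
log2(FPKM + 1) (vertical axis) of 6 genes at days 18, 25 and 38 (horizontal axis) in OSKM-ESCs (red) and 2iL-ESCs (blue), with libraries as points and lines through the means of 2. Zic2 peaked at day 25 in OSKM-ESCs at a mean of 69.5 FPKM, and the 2 media met at day 38.

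The course of each gene was named from the steps between days that passed the test. Day of culture cannot be told apart from the time at which the libraries of that day were collected. In OSKM-ESCs, Zic2 rose from a mean of 31.8 FPKM at day 18 to 69.5 at day 25 (log2 1.12 ± 0.16, SE, adjusted p = 0.00494 by limma) and fell to 36.7 at day 38 (-0.90 ± 0.16, adjusted p = 0.0085 by limma). Sox3 rose from 6.32 to 17.0 FPKM between days 18 and 25 (1.36 ± 0.28, adjusted p = 0.0162 by limma), with no call afterwards (-0.11 ± 0.28). Pou3f1 had no call between days 18 and 25 (0.99 ± 0.33, adjusted p = 0.0669 by limma) and fell from 33.1 to 9.15 FPKM by day 38 (-1.75 ± 0.33, adjusted p = 0.0114 by limma). Fgf5, Otx2 and Sox4 had no called step in OSKM-ESCs, although all libraries of Otx2 at a later day lay above those of the earlier day. The genes called were 2 of 6 higher at the earlier step (11.5% of all genes) and 2 of 6 lower at the later step (7.27%). At the earlier step 1 gene was called without OSKM-ESC day 25 replicate 1, and at the later step 1 without either library of day 25 and 0 without either library of day 38.

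In 2iL-ESCs, Zic2 took the same earlier step as in OSKM-ESCs, whereas the called steps of Pou3f1, Sox3 and Sox4 differed between the media. Pou3f1 fell from a mean of 2.40 to 0.596 FPKM between days 18 and 25 (log2 -1.08 ± 0.16, SE, adjusted p = 0.00247 by limma). Zic2 rose from 19.0 to 41.2 FPKM (1.08 ± 0.11, adjusted p = 7.1e-04 by limma) and Sox4 from 2.86 to 5.23 (0.71 ± 0.17, adjusted p = 0.016 by limma). Sox3 had no call at that step (0.26 ± 0.10, adjusted p = 0.0716 by limma), and Fgf5 and Otx2 did not pass the filter. Thus 3 of 4 genes tested were called, where 52.3% of all genes were and the median log2 difference was 0.12. Pou3f1 passed the filter only through day 18, where it was high, so the count is a description. Between days 25 and 38, 0 of 4 were called (19.9% of all genes), and 2 had an unadjusted p under 0.05. Without replicate 1 or replicate 2 of day 18, 1 was called at that later step.

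In iPSCs the libraries of the 2 media did not overlap for any of the 6 genes, OSKM-iPSCs being the higher, and 37.2% of genes tested were higher without overlap in this comparison. Fgf5 was 2.47 and 2.95 FPKM in OSKM-iPSC clones 1 and 3 and 0.216 and 0.0852 in 2iL-iPSC clones 3 and 6 (log2 difference 1.69 ± 0.28, SE, adjusted p = 0.0304 by limma). Otx2 was 4.33 and 11.7 against 0.910 and 0.526 FPKM (2.27 ± 0.45, adjusted p = 0.0432 by limma). Pou3f1 was 23.2 and 23.5 against 0.525 and 0.868 FPKM (3.85 ± 0.22, adjusted p = 0.006 by limma). These 3 were called, where 5.0% of all genes were called higher, but each passed the filter only through the OSKM-iPSCs, so nothing is read from the count.

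The other 3 genes were not called in iPSCs. Sox3 was 2.46 and 7.13 FPKM in OSKM-iPSC clones 1 and 3 against 1.70 and 2.22 in 2iL-iPSC clones 3 and 6 (log2 difference 0.85 ± 0.44, SE, adjusted p = 0.257 by limma). Sox4 was 18.2 and 10.8 against 2.77 and 5.43 FPKM (1.61 ± 0.36, adjusted p = 0.0551 by limma). Zic2 was 37.6 and 26.2 against 23.7 and 22.8 FPKM (0.42 ± 0.21, adjusted p = 0.2465 by limma). With no filter on low values, and without either 2iL-iPSC clone, 0 genes were called in iPSCs. Otx2 was also not called with quantile normalization or in limma without trend, while Sox4 was called with FPKM over 1 in at least 2 libraries and in 1 fit of all 9 groups. The limma count was 4 without OSKM-iPSC clone 1 and 3 without clone 3, and at an unadjusted p under 0.05 it was 4.

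The effect of the medium was not found to differ between iPSCs and ESCs for any of the 6 genes tested, where 14.2% of all genes were called. The difference of the log2 differences, iPSCs less ESCs, was -1.19 ± 0.40 for Sox3 (SE, adjusted p = 0.0704 by limma), -0.83 ± 0.34 for Otx2 and -0.55 ± 0.23 for Fgf5, and these 3 had an unadjusted p under 0.05. A missed threshold does not show that the effects were alike. Without OSKM-iPSC clone 3, 2 genes were called, and without OSKM-ESC day 18 replicate 1 or replicate 2, 1 was. OSKM-iPSCs against OSKM-ESCs gave 0 of 6 calls (10.1% of all genes) with 2 at an unadjusted p under 0.05, the largest difference being -1.26 ± 0.35 for Sox3 (adjusted p = 0.0646 by limma). Without OSKM-iPSC clone 3, 2 were called, and without clone 1 or OSKM-ESC day 18 replicate 2, 1 was. 2iL-iPSCs against 2iL-ESCs gave 1 call of 4 (26.1% of all genes), Zic2, which was lower by 0.38 (-0.38 ± 0.09, SE, adjusted p = 0.0238 by limma). That call was lost without either 2iL-iPSC clone, without 2iL-ESC day 25 replicate 2 or without 2iL-ESC day 38 replicate 1, leaving 0.

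Against the fibroblasts from which the iPSCs came, the genes parted. In MEF, Otx2 was listed at 0 in both libraries, Pou3f1 at 0.0219 and 0.057 FPKM, and Sox3 at 0 and 0.0216. Zic2 was 3.37 and 3.09, Fgf5 1.82 and 1.97, and Sox4 50.2 and 49.0 FPKM. Otx2, Pou3f1, Sox3 and Zic2 were thus lower than in every iPSC clone, whereas Sox4 was higher in MEF than in any pluripotent library. In OSKM-iPSCs against MEF, these 4 were called higher (34.0% of all genes) and Sox4 lower (26.4%), by -1.75 ± 0.26 on the log2 scale (SE, adjusted p = 0.00701 by limma). Otx2, Pou3f1 and Sox3 passed the filter only through the iPSCs, so the count of 4 is no support. The median log2 difference over all genes was 0.19 here and 0.02 with median-ratio scaling. Without MEF replicate 1 or replicate 2, 0 were called. In 2iL-iPSCs against MEF, Sox3 and Zic2 were called higher (40.6% of all genes) and Fgf5 and Sox4 lower (37.4%), by -1.33 ± 0.14 and -3.36 ± 0.26 (adjusted p = 7.74e-04 and 2.62e-04 by limma). Here Sox3 passed the filter only through the iPSCs and Fgf5 only through MEF. Fgf5 was not called in OSKM-iPSCs against MEF (0.36 ± 0.17, adjusted p = 0.128 by limma).

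The order of the 9 group means differed between genes. For Fgf5 it ran from OSKM-ESCs of day 25 (5.09 FPKM) through days 18 and 38 and OSKM-iPSCs (2.71) to MEF (1.89), 2iL-iPSCs (0.151) and the 2iL-ESCs, and neighbours among the first 4 groups overlapped in their libraries. For Otx2 it ran from OSKM-ESCs of day 38 (14.2 FPKM) through days 25 and 18 to OSKM-iPSCs (7.99), which overlapped with day 18, and then to the 2iL groups, all under 1, and MEF. For Pou3f1, OSKM-ESCs of day 25 (33.1 FPKM) were followed by OSKM-iPSCs (23.3), which overlapped with day 18 (17.6), and by day 38. For Sox3, days 25 and 38 of OSKM-ESCs (17.0 and 15.5 FPKM) overlapped and stood above day 18 and OSKM-iPSCs (6.32 and 4.79), which overlapped as well. OSKM-iPSCs also overlapped with 2iL-ESCs of day 38, since clone 1 (2.46 FPKM) lay below both of those libraries (2.87 and 2.82). For Sox4, MEF (49.6 FPKM) stood above OSKM-ESCs of day 38 (19.8), and OSKM-iPSCs and OSKM-ESCs of days 18 and 25 followed with overlap. For Zic2, OSKM-ESCs and 2iL-ESCs of day 25 came first (69.5 and 41.2 FPKM), and the next 4 groups, from 36.7 to 31.8, overlapped from neighbour to neighbour.

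Because Sox4 and Fgf5 are also fibroblast transcripts, the level of 10 fibroblast and feeder genes was measured beside them. Their summed level was 16.4 to 29.4 FPKM in OSKM-ESCs, 3.22 to 5.635 in 2iL-ESCs, 71.2 and 5.60 in OSKM-iPSC clones 1 and 3, 2.33 and 3.64 in 2iL-iPSCs, and 1141 and 997 in MEF. Over all days 6 of the 7 tested of these genes were called higher in OSKM-ESCs (29.5% of all genes), 3 of them over 1 FPKM in OSKM-ESCs only. Between 4 and 6 of the 10 were over 1 FPKM in OSKM-ESC libraries and 1 or 2 in 2iL-ESC libraries, where Lum, Twist1, Twist2, Dcn and Prrx1 were each listed at 0 in some. The OSKM-ESC sums were 1.54% to 2.75% of the mean MEF sum, and the same share of the MEF level would be 0.762 to 1.365 FPKM of Sox4 and 0.0291 to 0.0521 FPKM of Fgf5. The lowest levels measured in OSKM-ESCs were 9.62 FPKM of Sox4 and 2.41 of Fgf5. In OSKM-iPSC clone 1 the sum was 6.66% of that in MEF, and the same share of the MEF level would be 3.30 of its 18.2 FPKM of Sox4. The MEF measured grew in DMEM with 10% FBS, whereas the feeders were mitomycin-treated, so these shares need not carry over. The part of feeder RNA in the levels of Sox4 and Fgf5 was not tested.

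**Figure D4:**
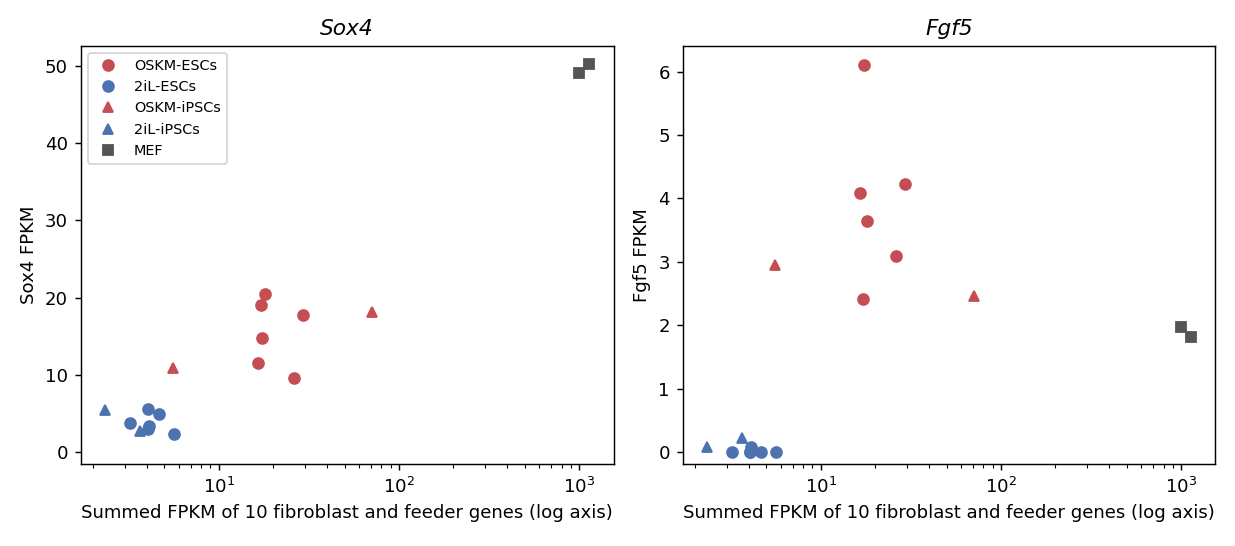
Sox4 and Fgf5 FPKM (vertical axes, linear) against the summed FPKM of 10 fibroblast and feeder genes (horizontal axis, log scale) in the 18 libraries, each a point. OSKM-ESCs lay at sums of 16.4 to 29.4 and OSKM-iPSC clone 1 at 71.2, while MEF lay at 1141 and 997 with Sox4 at 50.2 and 49.0 FPKM.

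Markers of other lineages that use these genes were also measured. The summed level of 10 neural genes was 43.5 to 75.0 FPKM in OSKM-ESCs and 50.6 to 73.1 in 2iL-ESCs. Tubb3, a neuronal tubulin, made up most of the 2iL-ESC sums, at 41.9 to 62.5 FPKM against 24.8 to 33.5 in OSKM-ESCs. Without it, a choice made after the values were seen, the sums were 17.9 to 46.0 FPKM in OSKM-ESCs and 6.43 to 11.1 in 2iL-ESCs and did not overlap. The same sums were 35.8 and 40.8 FPKM in MEF, within the range of OSKM-ESCs, and 7.88 and 33.95 in the OSKM-iPSC clones. They are therefore not particular to neural cells. Of the 6 neural genes tested, 4 were called higher in OSKM-ESCs over all days (29.5% of all genes) and Tubb3 lower (24.4%). Of the 4, 2 were over 1 FPKM in OSKM-ESCs only. Sox1, which defines the neural plate, was listed at 0 in all 18 libraries. Genes that overlap Sox1 were not looked at, so its 0 is not read as absence. The 5 neural crest genes summed to 0.736 to 3.25 FPKM in OSKM-ESCs and 0.935 to 1.84 in 2iL-ESCs, with 2 genes tested and 1 called higher (29.5% of all genes). The 6 primitive endoderm genes summed to 2.10 to 6.82 and 0.651 to 2.16 FPKM, with 3 tested and 2 called higher (29.5% of all genes). With so few genes tested, nothing is read from these 2 counts. The crest gene and both endoderm genes called were over 1 FPKM in OSKM-ESCs only. In MEF the crest and endoderm sums were 29.3 and 31.5, and 79.9 and 76.3 FPKM. The part of these markers in the results was not tested.

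Foxd3 was listed at 0 in FPKM and in coverage in all 18 libraries. Foxd3 (chr4:99656299-99658622, plus strand, GRCm38) has a single exon of 2324 bases, and the miRNA gene Gm23366 (chr4:99657742-99657830, plus strand) lies within it. Gm23366, looked at after its values were seen, was listed at 0.649 to 8.26 FPKM in the 16 pluripotent libraries and at 0 and 0.071 in MEF. An annotated gene of 89 bases was thus given signal inside an exon whose own gene was listed at 0. The 0 of Foxd3 cannot be read as absence, and no level of it is given here.

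The other genes have these positions on GRCm38, with the spans of the files equal to those of GENCODE M21. Fgf5 is at chr5:98254184-98277030 on the plus strand, with 5 annotated exons. Otx2 is at chr14:48657677-48673819 on the minus strand, and Pou3f1 at chr4:124656807-124660655 on the plus strand with 1 exon. Sox3 is at chrX:60891366-60893430 and Sox4 at chr13:28948919-28953713, each on the minus strand with 1 exon. Zic2 is at chr14:122475435-122479852 on the plus strand. The reads carry no strand, so antisense signal could not be told apart. Exons of Otx2os1 and Gm2164 cover 154 bases of Otx2 exons and 330 bases of the Pou3f1 exon on the opposite strand, and they were listed at no more than 0.462 and 0.500 FPKM. The span of Gm26735 covers 2753 of the 4795 exonic bases of Sox4 on the opposite strand. No level of Gm26735 was available and its exons were not compared with that of Sox4, so its part in the Sox4 signal is unknown.

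Zic5, the neighbour of Zic2, starts on the opposite strand with 9757 bases between the gene spans, and was looked at after the values of Zic2 were seen. It was 10.7, 19.3 and 10.97 FPKM in OSKM-ESCs at days 18, 25 and 38 (means of 2) and 7.05, 10.9 and 9.48 in 2iL-ESCs. The highest mean was thus at day 25 in both media, as for Zic2.

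Other genes of the same states and families were taken from 4 lists, to be read against 29.5% of all genes called higher and 24.4% called lower over all days. Of 12 formative genes, 9 were called higher in OSKM-ESCs over all days, 1 lower (Etv5) and 2 not (Lef1 and Etv4), with a median log2 difference of 1.08 against 0.03 over all genes tested. Pim2, a kinase, differed by 4.11 ± 0.33 (SE), the transcription factors Sall2 and Tcf15 by 1.74 ± 0.24 and 1.41 ± 0.25, and Dnmt3b, a DNA methyltransferase, by 1.37 ± 0.31. Of 12 primed and streak genes, 8 were called higher, 1 lower (Gsc) and 3 not (Eomes, Mixl1 and Nodal), with a median of 0.91. Of the 8, Fgf8, Wnt3, Cer1, Lhx1 and Foxa2 were over 1 FPKM in OSKM-ESCs only and so passed the filter only where they were high, as Gsc did through 2iL-ESCs, and the count is a description. Fgf8, a signal of the primitive streak, differed by 3.70 ± 0.40, T (brachyury) by 3.61 ± 0.42, Fst (follistatin, which binds activin) by 3.04 ± 0.30 and Cdh2 (N-cadherin) by 2.13 ± 0.21. In MEF, Fst (64.0 and 72.2 FPKM) and Cdh2 (41.0 and 47.1) were higher than in any OSKM-ESC library, while Fgf8 was listed at 0. The part of feeder RNA in Fst and Cdh2 was not tested. Of 13 naive genes, 12 were called lower and Klf4 was not, with a median of -2.70. Of the 12, 1 (Prdm14) was over 1 FPKM in 2iL-ESCs only, so that count is a description as well. Tbx3, Klf2, Tfcp2l1 and Tcl1 differed by -3.96 ± 0.18, -3.49 ± 0.19, -3.37 ± 0.25 and -3.05 ± 0.18. Within OSKM-ESCs the lists moved with day. From day 18 to 25, 8 of 12 formative genes were called higher (11.5% of all genes). Of 11 primed and streak genes, 0 were called higher and 3 lower there (1583 of 13073 genes lower). From day 25 to 38, 10 of these 11 were called higher (14% of all genes) and 8 formative genes lower (7.27%). Foxa2, Lhx1, Cer1 and Mixl1 were over 1 FPKM at day 38 only, so that count is a description.

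Among 19 genes of the same families, 8 were tested over all days, with 4 called higher, 2 lower and 2 not, and a median of 0.38. Sox11, a SOXC factor like Sox4, was higher by 2.38 ± 0.17 (log2, SE, n = 6 and 6), at 7.94 to 19.8 FPKM in OSKM-ESCs against 0.867 to 2.62 in 2iL-ESCs. Zic1 was higher by 0.58 ± 0.18 and passed the filter only through OSKM-ESCs. Sox2, a SOXB1 factor like Sox3, was lower by 0.57 (-0.57 ± 0.16), and Fgf4, the ligand that drives ERK in naive cells, by -1.59 ± 0.16. Genes of 1 family were therefore called in opposite directions, with Sox3 higher and Sox2 lower and with Fgf5 higher and Fgf4 lower, although transgene reads count towards Sox2. Fgf4 is also on the naive list and Zic5 also on the formative list. The genes named singly outside the largest differences of each list were chosen after their values were seen.

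In iPSCs, with 2 libraries against 2, 5.0% of all genes were called higher and 2.96% lower, and the list counts are to be read against these shares. Of 12 formative genes, 2 were called higher (Pim2 by 3.28 ± 0.35 and Sall2 by 1.27 ± 0.25, log2, SE), with a median of 0.49 against 0.09 over all genes. Of 8 primed and streak genes tested, Fgf8 was called higher by 1.88 ± 0.30, having passed the filter only through OSKM-iPSCs, and T differed by 0.07 ± 0.52 without a call. Of 13 naive genes, 10 were called lower, with a median of -2.54. Of the 10, 2 were over 1 FPKM in 2iL-iPSCs only, so the count is a description. Of 7 family genes tested, 1 was called, Fgf4, by -1.48 ± 0.28. Without either 2iL-iPSC clone, and with no filter on low values, 0 genes of these 4 lists were called in iPSCs. The difference of the medium effects, iPSCs less ESCs, was also tested, where 5.55% of all genes were called lower and 8.67% higher. Of 12 primed and streak genes, 7 were called lower (T, Fst, Fgf8, Foxa2, Lhx1, Cer1 and Eomes), with a median of -0.77 against 0.06 over all genes, T by -3.54 ± 0.41 and Fst by -2.68 ± 0.33 (log2, SE). Of 12 formative genes, 3 were called lower, among them Dnmt3a by -1.29 ± 0.26 and Etv4 by -1.27 ± 0.21, with a median of -0.51. Of 13 naive genes, Dppa3 was called higher by 1.72 ± 0.32 and Nr0b1 lower by -1.36 ± 0.14, and of 8 family genes 2 were called lower. Those named here were chosen as the called ones.

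**Figure D5:**
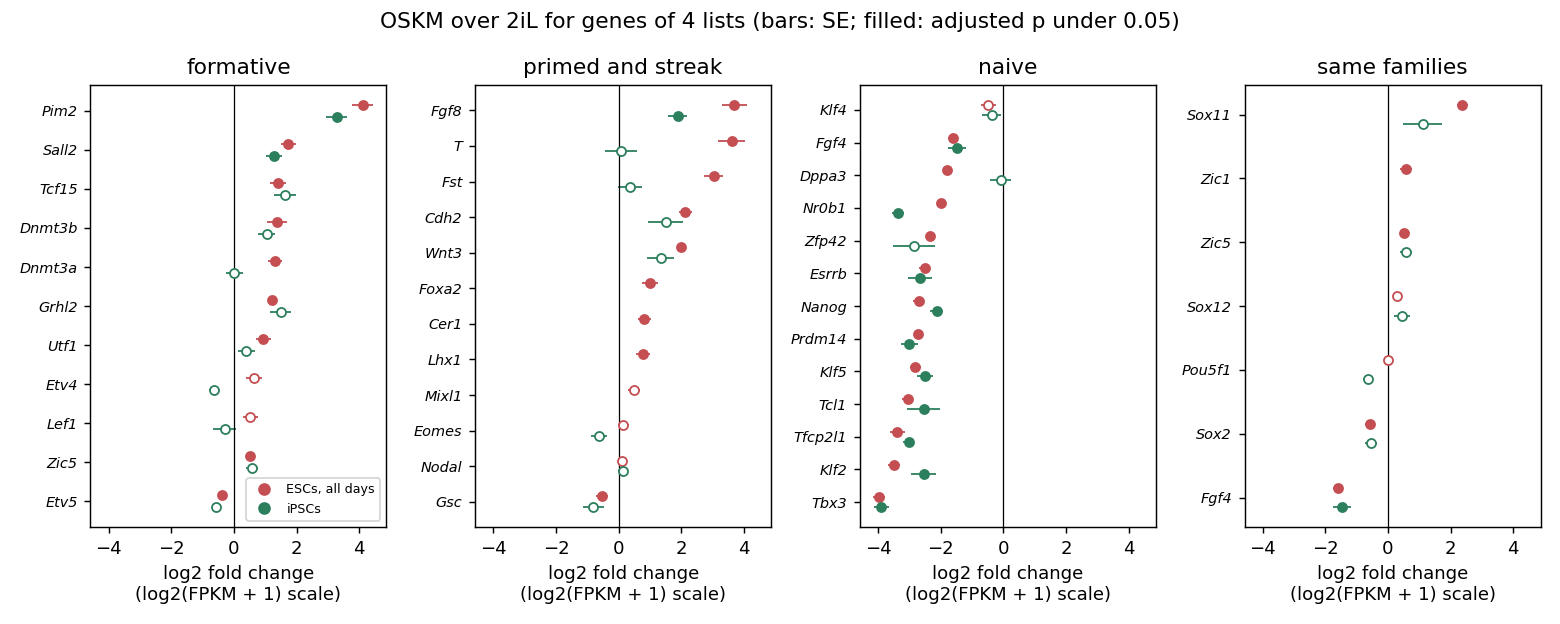
log2 fold change of OSKM over 2iL on the log2(FPKM + 1) scale (horizontal axis, bars are SE) for most tested genes of 4 lists in ESCs over all days (red, 6 libraries against 6) and in iPSCs (green, 2 against 2), with filled points for an adjusted p under 0.05. Over the whole lists, in ESCs 9 of 12 formative and 8 of 12 primed genes were called higher and 12 of 13 naive genes lower.

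Over the 16 pluripotent libraries, Fgf5 correlated with Otx2 at r = 0.962 and with Pou3f1 at 0.95, while Zic2 correlated with the other 5 genes at 0.448 to 0.643 (Pearson, log2(FPKM + 1)). These points share 2 media, 1 ESC line and repeated days, so r mostly carries the gap between media. Over the 8 OSKM libraries alone, r was 0.825 for Otx2 and Sox3, 0.693 for Fgf5 and Zic2, and between -0.296 and 0.592 for the other 13 pairs. Among 10091 genes, those most like Fgf5 were Esrp1 (r = 0.981), Crmp1 (0.98) and Efnb2 (0.978), those most like Otx2 included Tro (0.975) and Irx3 (0.974), and those most like Pou3f1 included Cacng7 (0.986) and Gclc (0.975). Those most like Sox3 were Pomgnt2 (0.951), Plxnb1 (0.95) and Nt5dc2 (0.943), those most like Sox4 were Klhdc2 (0.977), Zfp768 (0.973) and Lrrc1 (0.973), and those most like Zic2 were 2610035F20Rik (0.947), Cpsf7 (0.924) and Auts2 (0.919). For Fgf5, 277 genes had an r over 0.9, and for Zic2 10 genes. The choice depended on the measure, since by Spearman's rho 1 of the 3 most alike genes remained for Sox3 and for Zic2 and 0 for each of the other 4, and by the means of 8 groups between 0 and 2 of the 3 remained.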

How the data were processed

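RNA-Seq libraries (poly-T selected, NEBNext Ultra, not strand-marking) were made from 18 samples. Alignment by the authors used STAR 2.7.1a on GRCm38, with uniquely mapped reads passed to StringTie 2.0. The annotation is not given in the sources used here. The deposited FPKM values are StringTie's per gene, and the deposited coverage is a signal, the mean read coverage per base without normalization. Depth in reads is unknown. U2surp and St13 were left out for a failed value, and the repeated entries of 11 gene identifiers were added up, which left 55469 genes.

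Groups came from the sample titles. limma 3.58.1 in R 4.3.3 (lmFit and eBayes, trend on) took log2(FPKM + 1) as input, with only the groups compared in a fit, day as a covariate over all days, a filter of FPKM over 1 in at least 1 library, and Benjamini-Hochberg adjustment over all genes tested. Steps between days used 1 fit per medium. The procedure was run on simulated data with independent normal spread per gene, and its outcome is not reported here. Members and lists were chosen with earlier results of these data known. Every member was described. Genes of the lists were named as the 2 to 4 with the largest absolute log2 difference over all days among those called, and genes most like a member as the 3 with the highest Pearson r among genes that exceeded 5 FPKM in any of 16 libraries. Some genes that these rules name are not reported here, though counts over lists include them. Alternatives were a pseudocount of 0.1, other filters, TPM, quantile normalization, scaling by median ratios, the fit with no trend, 1 fit of all 9 groups, an added 2-fold criterion, a replicate block and leaving out each replicate.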

Additional observations from a re-analysis of the deposited data

Results flagged for a closer look

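In 12 checks of the highest and lowest of 6 libraries of a medium, 1 value stood apart, Fgf5 in replicate 2 of the 2iL-ESCs of day 18, at 0.0855 FPKM where the other 5 were listed at 0. Chance flags about 1 in 20 groups of normally spread values. That rate does not apply here, since with 5 values at 0 any other value is flagged by construction. The difference between media varied with the day of culture for 3 genes by the interaction test of limma. The range of the log2 difference over the 3 days was 2.07 for Pou3f1, 0.73 for Zic2 and 0.54 for Otx2.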

How the results depend on the processing

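Of 142 counts of members called under another setting, 129 lay within 1.5 times the reported count, as did 73 of 104 with a replicate left out. Of 776 log2 differences of single members under another setting, 726 kept direction and call, 26 lost and 19 gained the call, and 5 reversed. With no filter on low values, the count fell to 1 for each step between days in OSKM-ESCs, to 0 in iPSCs and to 0 for 2iL-iPSCs against 2iL-ESCs. In 1 fit of all 9 groups it was 1 for the variation of the medium effect with day, 2 for OSKM-iPSCs against OSKM-ESCs and 0 for 2iL-iPSCs against 2iL-ESCs. With an added 2-fold criterion it was 1 for OSKM-ESCs from day 25 to 38 and 0 for 2iL-iPSCs against 2iL-ESCs. For 2iL-ESCs from day 25 to 38 it was 1 with median-ratio scaling, quantile normalization or limma without trend, and for iPSCs against ESCs it was 1 with a pseudocount of 0.1. Reversals were all of differences that were not called. Zic2 at day 38 was -0.0469 with median-ratio scaling, Sox4 in OSKM-ESCs from day 18 to 25 was 0.0378 with median-ratio scaling, 0.0385 with quantile normalization and 0.0908 with TPM, and Pou3f1 in 2iL-ESCs from day 25 to 38 was -0.0247 with TPM. The cause was not tested. Scaling moved the share of calls that were higher over all genes by more than 10 percentage points in several comparisons. It went from 63.8% to 52.9% with median-ratio scaling, 51.1% with quantile normalization and 75.3% with TPM for 2iL-ESCs from day 18 to 25, from 65.8% to 52.4% and 48.3% with the first 2 of these for OSKM-ESCs from day 25 to 38, with quantile normalization from 62.8% to 49.0% in iPSCs, from 61.0% to 47.4% for iPSCs against ESCs and from 54.3% to 43.7% for OSKM-iPSCs against OSKM-ESCs, and with TPM from 48.7% to 63.5% for OSKM-ESCs from day 18 to 25 and from 38.6% to 23.3% for 2iL-ESCs from day 25 to 38.

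With each replicate left out in turn, the count of members called ranged from 2 to 6 at day 18, from 1 to 5 for the variation of the medium effect with day, from 1 to 3 and from 0 to 3 for the earlier and later step in OSKM-ESCs, from 0 to 1 for the later step in 2iL-ESCs, from 0 to 4 in iPSCs, from 0 to 2 for iPSCs against ESCs, from 0 to 6 for OSKM-iPSCs against MEF, from 0 to 2 for OSKM-iPSCs against OSKM-ESCs and from 0 to 1 for 2iL-iPSCs against 2iL-ESCs. Log2 differences that changed sign ranged from -0.0337 to 0.057 for Zic2 at day 38, from -0.4143 to 0.404 for Sox4 and from -0.2864 to 0.0572 for Sox3 at the earlier and later step in OSKM-ESCs, from -0.0363 to 0.0582 for Pou3f1 at the later step in 2iL-ESCs, from -0.5468 to 0.2248 for Sox4 and from -0.3214 to 0.1874 for Zic2 in iPSCs against ESCs, from -0.436 to 0.2575 for Sox4 in OSKM-iPSCs against OSKM-ESCs, and from -0.1917 to 0.0593 for Sox3 and from -0.314 to 0.4576 for Sox4 in 2iL-iPSCs against 2iL-ESCs.

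Same-numbered libraries of the 2 media had deviations correlated at 0.131, 0.09 and 0.012 at days 18, 25 and 38 over 14016 genes, so the numbers were not taken as a pairing. With a replicate block, 6 members were called over all days, 4 for the variation of the medium effect with day (Otx2 lost, Sox3 and Sox4 gained) and 3 for OSKM-ESCs from day 18 to 25.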
